A study of Mus musculus with 7 samples.

Results

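The genes described here encode the subunits of respiratory chain complexes I, III and IV and of ATP synthase, also called complex V. They were taken by name from the table of 32544 genes: names that begin with Nduf followed by a, b, c, s or v and a digit, with Uqcr, with Cox and a digit from 4 to 8, or with Atp5, and the mitochondrial mt-Nd, mt-Co, mt-Cytb and mt-Atp genes, with pseudogene names left out. This gave 93 genes, of which 13 are encoded in mitochondrial DNA and 80 in the nucleus. Atp5s and Atp5sl carry an Atp5 name but are not counted as subunits and are given apart, which leaves 78 nuclear subunits. Ndufa4 and Ndufa4l2 were counted with complex IV, where the NDUFA4 protein is now placed. The rule itself uses names alone.

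RNA came from the whole abdominal aorta of male Apoe-/- mice fed a high-fat diet for 12 weeks. Both groups lack apolipoprotein E and ate the same diet, and their plaque-prone background is therefore shared. The first group, with 3 libraries, received ITA-LNP, a lipid nanoparticle (LNP); ITA is read here as itaconate, the compound that the series title names. The second group, with 4 libraries, received a control LNP, and in both the particles were injected into the vein weekly at 50 mg/kg. The animals' age is not given in the sources used here. Whether every library stands for its own mouse is not in the labels, so the p-values weigh differences against the spread between these libraries, some of which may be technical.

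The respiratory chain passes electrons from NADH and succinate to oxygen and pumps protons across the inner mitochondrial membrane, and ATP synthase uses the proton gradient to make ATP. Complexes I, III, IV and V are built from subunits of both genomes: mitochondrial DNA encodes membrane-embedded core subunits, and nuclear genes encode the remaining core subunits and all accessory ones. Complex II is encoded in the nucleus alone. In the vessel wall, smooth muscle cells, endothelium, fibroblasts and macrophages all carry mitochondria, and the heart, brown fat and skeletal muscle use tissue-specific isoforms of several complex IV subunits.

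The mitochondrial genes lie close together, and some share bases, so reads in the shared bases cannot be told apart by position. Because their values are read gene by gene below, the shared ends are shown here, from GENCODE M21 on mm10, with the bases shared with the next gene in capitals. The end of mt-Atp8 is chrM:7910-7969 on the plus strand and shares 43 bases with mt-Atp6. The end of mt-Nd4l is chrM:10144-10173 on the plus strand and shares 7 bases with mt-Nd4.
mt-Atp8: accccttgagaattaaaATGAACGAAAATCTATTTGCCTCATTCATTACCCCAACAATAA
mt-Nd4l: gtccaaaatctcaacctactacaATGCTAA
In mammals each of these pairs is carried on a single messenger, as background. mt-Atp6 and mt-Co3 share 1 base, and mt-Nd5 and mt-Nd6 share 14 bases on opposite strands. Whether the counting used strand is not given in the sources used here, so reads of mt-Nd6 and of the strand opposite to it cannot be told apart.

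The libraries held 5077073 to 7281721 reads, and 0 reads allow a level of up to 0.412 to 0.591 CPM (3 reads, counting error only). CPM are reads per 1000000 reads assigned to listed genes; the libraries read transcript ends, so a level does not scale with gene length. Control-LNP replicate 2 stood apart from its group. Its log2(CPM + 1) values over all genes correlated at 0.7268 to 0.7388 with the other control-LNP libraries, which correlated at 0.9698 to 0.9749 with each other. Results that rest on it are given with and without it. The groups also differed in markers of the cell types an aorta sample can hold. The 8 smooth muscle markers, which define the labelled tissue, summed to 17304 to 20964 CPM in ITA-LNP libraries and to 538 to 842 CPM in control-LNP libraries, and all 8 were higher with ITA-LNP. The 6 platelet markers summed to 90.6 to 182 CPM with ITA-LNP and to 5304 to 6770 CPM in control-LNP libraries, and the 6 red cell markers to 2556 to 4242 CPM with ITA-LNP and to 12409 to 44773 CPM in control-LNP libraries. Fibroblast markers were also higher with ITA-LNP (5 of 6 called, sums of 13305 to 15786 CPM, against 95.8 to 238 CPM in control-LNP libraries), and B cell markers lower (4 of 5 called, sums of 4.81 to 25.1 CPM, against 548 to 1608 CPM). In bulk RNA, fewer cells of a type and less RNA per cell cannot be told apart. Among the 12636 genes tested, limma called 1306 higher and 651 lower with ITA-LNP; with each library centred on its median gene the split was 741 higher and 1249 lower, and with quantile normalization 1614 higher and 1401 lower.

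Most of the mitochondrially encoded genes rose with ITA-LNP, and few nuclear subunits passed the test in either direction. Of the 12 mitochondrial genes tested, 7 rose and 0 fell, with a median log2 fold change of 1.29; 10.3% of all genes tested were called higher and 5.15% lower. The median over all genes tested was 0.15. At an unadjusted p under 0.05, limma put 9 of the 12 higher and 0 lower, and limma-voom on the recovered reads called 8 higher and 0 lower. Over all 12636 genes tested, voom called 1270 higher and 498 lower. No count over all genes is given at an unadjusted p under 0.05, here or below. Of the 74 nuclear subunits tested, 0 rose and 3 fell, or 4.05% of them, with a median log2 fold change of 0.0012. At an unadjusted p under 0.05, 4 nuclear subunits were higher and 5 lower, and voom called 0 higher and 2 lower. The count of 3 was 1 when ITA-LNP replicate 2, ITA-LNP replicate 3, control-LNP replicate 3 or control-LNP replicate 4 was left out. Without control-LNP replicate 2, 11 of the 12 mitochondrial genes were called higher and 0 lower, and 4 nuclear subunits were higher and 7 lower, against 15.7% of all genes in each direction. The wall and blood markers above moved with the groups, and their part in these counts was not tested. The call of the mitochondrial genes depends on the scaling: median centring moves the difference between the groups by 1.13 on the log2 scale, and with it 0 of the 12 passed and their median log2 fold change was 0.16, against -0.98 over all genes tested and -1.13 over the nuclear subunits. mt-Nd2, mt-Nd5, mt-Nd6 and mt-Cytb then had values below 0, none of them called. When control-LNP replicate 2 was left out as well, centring moved the difference by 0.23 and 10 of the 12 were called higher.

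**Figure D1:**
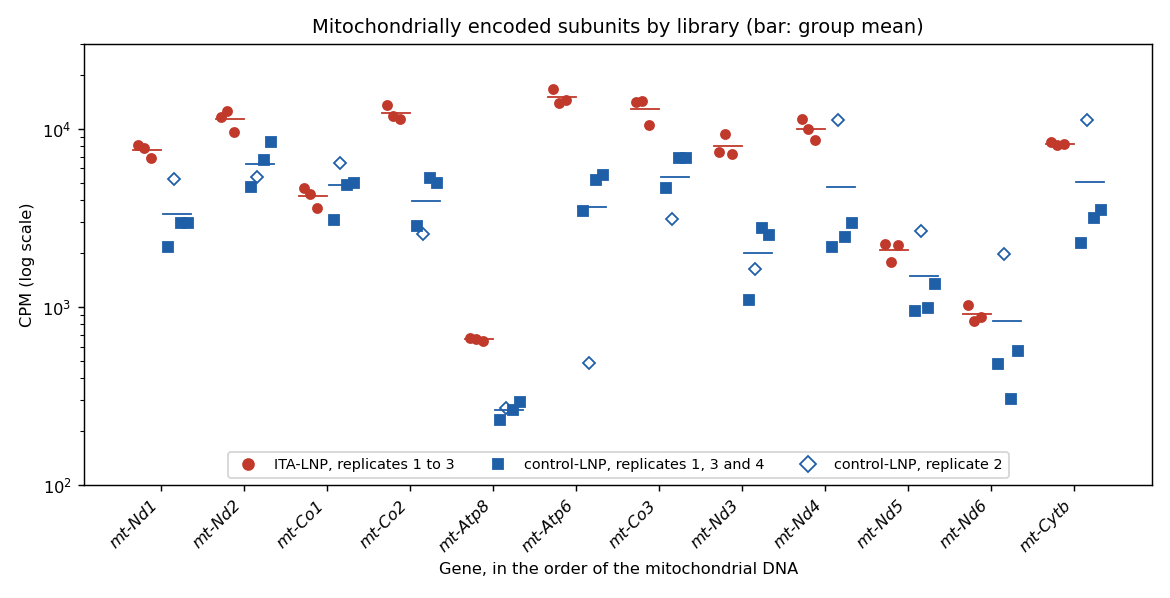
CPM on a log axis of each mitochondrially encoded subunit gene, with ITA-LNP libraries left of control-LNP libraries, 1 point a library, control-LNP replicate 2 as an open diamond and a bar at each group's mean. mt-Nd3, mt-Co2 and mt-Atp6 show no overlap between the groups, while control-LNP replicate 2 lies above its group for mt-Nd4, mt-Cytb and mt-Nd6 and below it for mt-Atp6.

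The mitochondrial subunits of complex I form its proton-pumping membrane arm. mt-Nd3 had 7415, 9309 and 7233 CPM in ITA-LNP libraries, against 1091, 1644, 2776 and 2542 CPM in control-LNP libraries. The groups did not overlap, and the log2 fold change was 2.07 ± 0.30 (SE; limma, adjusted p = 0.00155). mt-Nd1 had 8140, 7827 and 6887 CPM with ITA-LNP and 2171, 5229, 2980 and 2950 CPM in control-LNP libraries. It rose by 1.27 ± 0.25 (log2, adjusted p = 0.00733), again with no overlap. mt-Nd2 had 11688, 12685 and 9670 CPM with ITA-LNP and 4748, 5362, 6688 and 8489 CPM in control-LNP libraries. Its difference was smaller, 0.87 ± 0.19 (log2, adjusted p = 0.0122), and it passed neither without ITA-LNP replicate 1 (adjusted p = 0.0579) nor without ITA-LNP replicate 2 (adjusted p = 0.0698); with median centring it was -0.26.

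The other complex I genes overlapped between the groups through 1 library. mt-Nd4 had 11330, 10028 and 8634 CPM in ITA-LNP libraries and 2176, 11227, 2487 and 2971 CPM in control-LNP libraries. Control-LNP replicate 2 was as high as the ITA-LNP libraries and the other control-LNP libraries were low. The log2 fold change was 1.44 ± 0.48 with all libraries (adjusted p = 0.0786) and 1.98 without control-LNP replicate 2 (adjusted p = 0.000353). mt-Nd5 had 2263, 1791 and 2241 CPM with ITA-LNP and 952, 2678, 982 and 1347 CPM in control-LNP libraries (0.62 ± 0.34, adjusted p = 0.261; 0.95 without control-LNP replicate 2, adjusted p = 0.0104). mt-Nd6, the gene on the opposite strand, had 1025, 832 and 882 CPM with ITA-LNP and 479, 1980, 306 and 563 CPM in control-LNP libraries (0.51 ± 0.53, adjusted p = 0.592; 1.06 without control-LNP replicate 2, adjusted p = 0.0155). For both genes control-LNP replicate 2 was the highest of all 7 libraries. mt-Nd4l was listed at 0 in all 7 libraries, while mt-Nd4, which shares its messenger, had at least 2176 CPM in each.

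mt-Cytb encodes cytochrome b, the only subunit of complex III made in mitochondria. It had 8474, 8126 and 8244 CPM in ITA-LNP libraries and 2300, 11168, 3178 and 3485 CPM in control-LNP libraries. Control-LNP replicate 2 lay above the ITA-LNP libraries and the other control-LNP libraries lay below them. The log2 fold change was 1.01 ± 0.44 (adjusted p = 0.158), and 1.49 without control-LNP replicate 2 (adjusted p = 0.00138).

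Of the 3 mitochondrial core subunits of complex IV, cytochrome c oxidase, 2 rose. mt-Co2, which holds the entry site of electrons from cytochrome c, had 13554, 11826 and 11373 CPM with ITA-LNP and 2833, 2563, 5288 and 4983 CPM in control-LNP libraries. It rose by 1.72 ± 0.25 (log2, adjusted p = 0.00177). mt-Co3 had 14124, 14405 and 10480 CPM with ITA-LNP and 4633, 3134, 6884 and 6863 CPM in control-LNP libraries, a rise of 1.33 ± 0.26 (adjusted p = 0.00711). For both genes the ITA-LNP values lay apart from the control-LNP values; over the mitochondrial genes this held for 7 of 12, and 19.1% of all genes tested had all ITA-LNP values above. mt-Co1, which carries the oxygen-reducing centre, had 4651, 4298 and 3613 CPM with ITA-LNP and 3078, 6425, 4822 and 4976 CPM in control-LNP libraries. Its groups overlapped, and its log2 fold change was -0.16 ± 0.22 (adjusted p = 0.696) with a 95% interval of -0.67 to 0.34. Without control-LNP replicate 2 the value was -0.01 (adjusted p = 0.979), and mt-Co1 was the 1 mitochondrial gene of 12 not called in that fit.

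ATP synthase has 2 mitochondrial subunits, both in its membrane part. mt-Atp6, part of the proton channel, had 16703, 14071 and 14547 CPM in ITA-LNP libraries and 3439, 486, 5188 and 5506 CPM in control-LNP libraries. Control-LNP replicate 2 was the lowest of all 7 libraries. The log2 fold change was 2.52 ± 0.71 (adjusted p = 0.0409), and 1.71 without control-LNP replicate 2 (adjusted p = 0.00123). Leaving out 1 library at a time ended the call for each ITA-LNP library (adjusted p = 0.139, 0.120 and 0.128) and for control-LNP replicate 1 (adjusted p = 0.0664). mt-Atp8, which shares bases with it, had 667, 661 and 647 CPM with ITA-LNP and 232, 270, 263 and 292 CPM in control-LNP libraries. The replicates of each group lay close together, control-LNP replicate 2 included, and the gene rose by 1.32 ± 0.25 (adjusted p = 0.00609). mt-Atp8 did not pass with the replicate number as a block (adjusted p = 0.0703) or with median centring (0.19, adjusted p = 0.909).

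The make-up of the mitochondrial messages is described here without a test. As a share of the reads of the 13 mitochondrial genes, which does not depend on the nuclear genes in the library total, mt-Co1 took 4.65%, 4.48% and 4.28% in ITA-LNP libraries and 10.9%, 12.3%, 11.5% and 11.1% in control-LNP libraries. The groups did not overlap, and control-LNP replicate 2 was within 2 percentage points of the others. The share of mt-Nd2 averaged 12.1% ± 0.97 with ITA-LNP (SD, n = 3) and 17.2% ± 1.48 in control-LNP replicates 1, 3 and 4 (SD, n = 3), and was 10.3% in control-LNP replicate 2. mt-Nd3 took 8.56% ± 1.15 with ITA-LNP (SD, n = 3) and 5.39% ± 1.40 in those 3 control-LNP libraries. mt-Atp6 took 16.2% ± 1.34 with ITA-LNP and 12.3% ± 0.10 in the same 3 control-LNP libraries. Control-LNP replicate 2 had another make-up: mt-Atp6 took 0.931% of its mitochondrial reads (95% Wilson interval 0.900 to 0.964), mt-Nd4 21.5% (21.4 to 21.7) and mt-Cytb 21.4% (21.3 to 21.5). In the other control-LNP libraries mt-Nd4 took 6.76% ± 0.91 and mt-Cytb 7.84% ± 0.30 (SD, n = 3), and with ITA-LNP they took 10.7% ± 0.58 and 8.90% ± 0.74 (SD, n = 3). These shares add up to a whole, so a higher share of 1 gene lowers the others. Intervals cover counting error only.

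**Figure D2:**
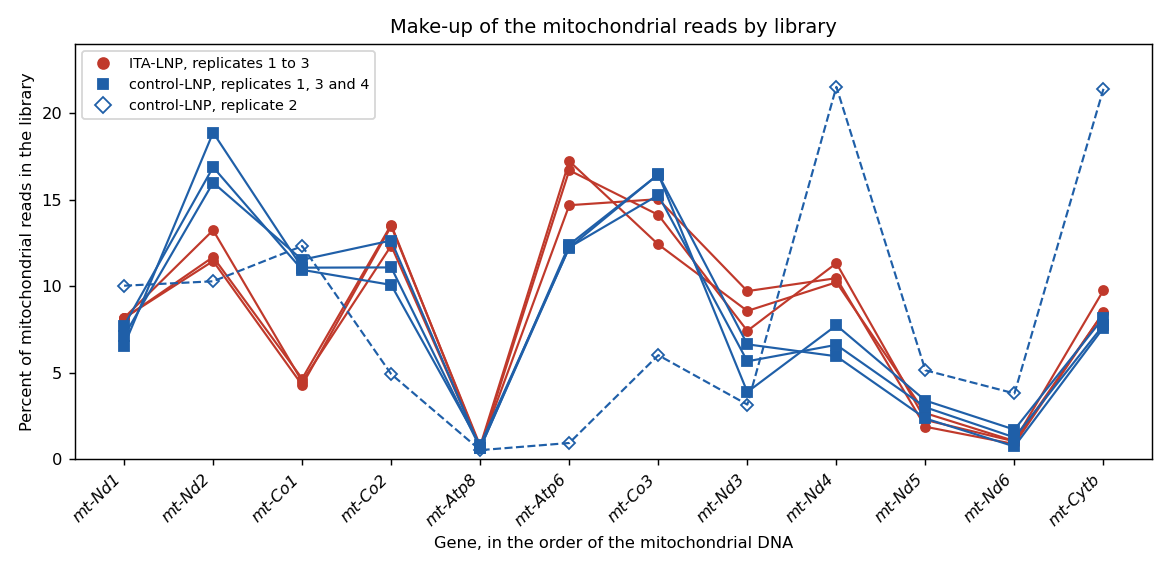
Share of the reads of the 13 mitochondrially encoded genes taken by each gene, in percent, 1 line a library, in red for ITA-LNP, in blue for control-LNP and dashed for control-LNP replicate 2, with genes in their order on mitochondrial DNA. mt-Co1 takes 4.28% to 4.65% with ITA-LNP and 10.9% to 12.3% in control-LNP libraries, and control-LNP replicate 2 shows the small mt-Atp6 and large mt-Nd4 and mt-Cytb shares.

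Set against the nuclear subunits of the same complexes, the mitochondrial messages took a larger part with ITA-LNP. The 13 mitochondrial genes summed to 100033, 95862 and 84452 CPM in ITA-LNP libraries and to 28133, 52167, 41844 and 44965 CPM in control-LNP libraries. The 78 nuclear subunits summed to 10460, 13666 and 11818 CPM with ITA-LNP and to 9776, 14466, 16488 and 13593 CPM in control-LNP libraries. The mitochondrial sums did not overlap between the groups and the nuclear sums did. The ratio of the mitochondrial to the nuclear sum was 9.56, 7.01 and 7.15 with ITA-LNP and 2.88, 3.61, 2.54 and 3.31 in control-LNP libraries. The library total cancels in this ratio, so it is the same under every scaling by 1 factor a library. Its mean was 2.57 times as high with ITA-LNP, and 2.72 times without control-LNP replicate 2. No p-value is given for these sums.

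By complex, the ratio in complex I was 12.3, 9.53 and 9.16 with ITA-LNP and 3.52, 6.19, 2.96 and 4.37 in control-LNP libraries. In complex IV it was 9.17, 7.14 and 6.82 with ITA-LNP and 3.35, 2.47, 2.91 and 3.50 in control-LNP libraries. Complex V had the lowest ratios, 6.67, 4.38 and 4.93 with ITA-LNP and 1.59, 0.223, 1.54 and 1.88 in control-LNP libraries. In these 3 complexes all ITA-LNP libraries lay above all control-LNP libraries. The mean ratio with ITA-LNP was 2.42 times that of control-LNP in complex I, 2.52 times in complex IV and 4.07 times in complex V. Without control-LNP replicate 2, in which mt-Atp6 was low, complex I came to 2.85 times, complex IV to 2.37 times and complex V to 3.19 times. Every gene weighs the same when the mean log2(CPM + 1) is used in place of sums, and the log2 difference in the ratio was then 0.70 for complex I, against 1.32 with sums, 1.23 against 1.26 for complex III, 1.07 against 1.33 for complex IV and 1.76 against 2.38 for complex V. Genes at 0 in every library stay in these means: mt-Nd4l in complex I, and Cox4i2, Cox7b2 and Ndufa4l2 in complex IV. Keeping mt-Nd4l lowers the value of 0.70 for complex I. In complex III, where cytochrome b alone stands for the mitochondrial side, the ratio was 9.25, 5.18 and 7.38 with ITA-LNP and 2.27, 6.90, 1.93 and 2.51 in control-LNP libraries. Those groups overlapped through control-LNP replicate 2, and the mean was 2.13 times as high with that library and 3.24 times without it.

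**Figure D3:**
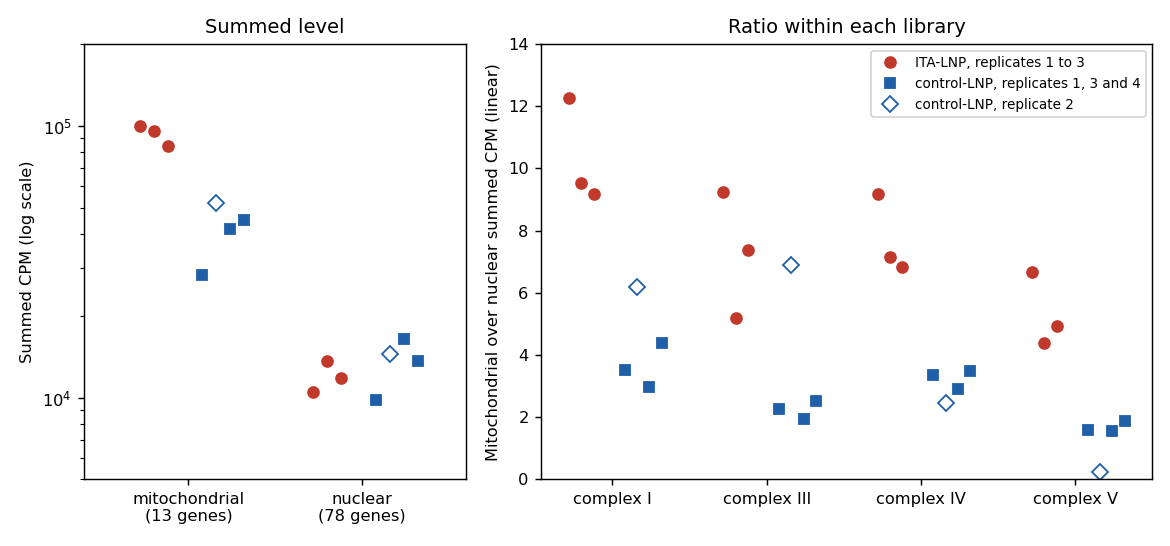
Left, summed CPM (log axis) of the 13 mitochondrial and the 78 nuclear subunit genes, and right, the ratio of the mitochondrial to the nuclear sum (linear axis) in complexes I, III, IV and V, 1 point a library with ITA-LNP left of control-LNP. The groups lie apart for the mitochondrial sum and for the ratios of complexes I, IV and V, and in complex III control-LNP replicate 2, an open diamond, reaches 6.90.

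The nuclear subunits lay on both sides of 0 in CPM. Of the 74 tested, 37 had a log2 fold change above 0, 6 had all ITA-LNP values above all control-LNP values and 5 had them all below. That even split depends on the scaling, since the median of -1.13 with median centring was -0.36 when control-LNP replicate 2 was left out as well. Among all genes tested, 19.1% had all ITA-LNP values above and 10.7% below. Without control-LNP replicate 2, 8 nuclear subunits lay all above and 15 all below, against 21.4% and 24.2% of all genes. The spread was wide: the median standard error was 0.54 for nuclear subunits and 0.28 for mitochondrial genes. The 95% interval lay within a 2-fold change either way for 5 of the 74, and for 23 it included a 2-fold change in both directions, so for these neither a rise nor a fall of that size was told from no change. Without control-LNP replicate 2 these counts were 17 and 6. In that library 20 of the 74 nuclear subunits (27%) stood at under 0.1 times the lowest of the other control-LNP libraries, against 48.7% of all genes tested, and 11 (14.9%) stood over 2 times the highest, against 11.8%. Of the 78 nuclear subunits, 16 were at or under 3 reads in control-LNP replicate 2, as were 5 in each of the other control-LNP libraries and 5 to 8 in ITA-LNP libraries. Such a scatter in single genes can be seen for Atp5o, the stalk subunit of ATP synthase also called OSCP, chosen after its values were seen: it had 30.7, 122 and 67.8 CPM with ITA-LNP and 42.5, 0.150, 66.9 and 45.1 CPM in control-LNP libraries, where 0.150 is 1 read.

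**Figure D4:**
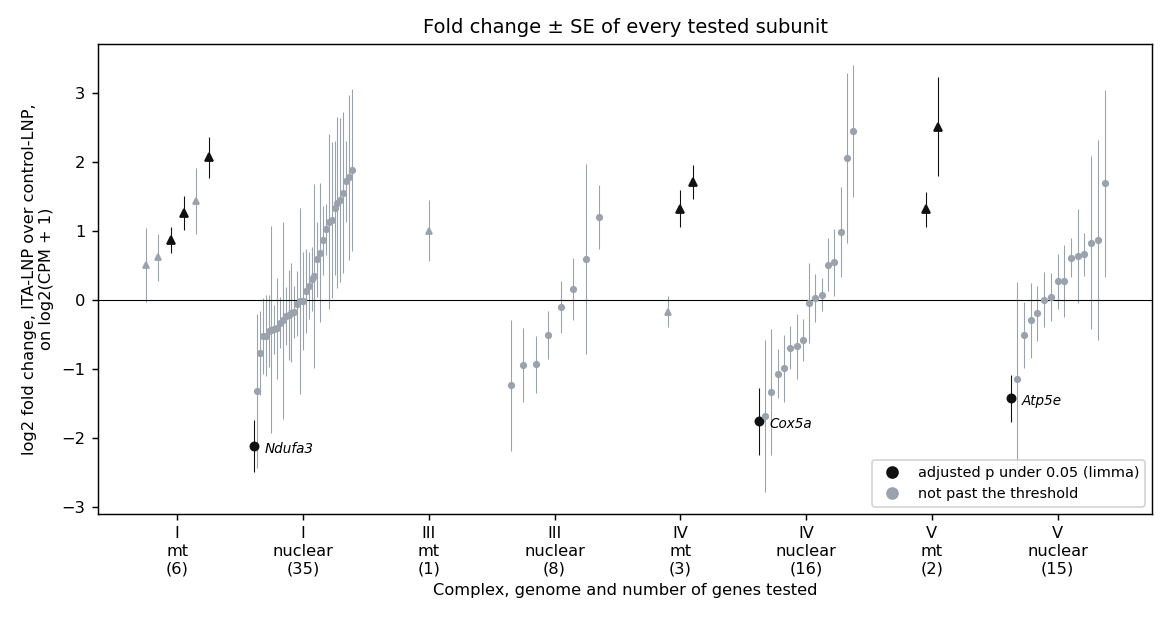
Log2 fold change (ITA-LNP over control-LNP, log2(CPM + 1) scale) of every tested subunit by complex and genome of origin, 1 point a gene with its SE, mitochondrial genes (triangles) left of nuclear ones (circles) and genes past the threshold in black. The mitochondrial genes lie between -0.16 and 2.52, and the nuclear subunits lie on both sides of 0.

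The 3 nuclear subunits that passed were lower with ITA-LNP, each in another complex. Ndufa3, an accessory subunit of the membrane arm of complex I (chr7:3617373-3620327, plus strand), had 83.8, 140 and 147 CPM in ITA-LNP libraries and 335, 693, 634 and 512 CPM in control-LNP libraries. The groups did not overlap, and it fell by 2.12 ± 0.38 on the log2 scale (adjusted p = 0.00411). Atp5e, the epsilon subunit in the central stalk of ATP synthase (chr2:174461072-174464105, minus strand), had 179, 155 and 143 CPM with ITA-LNP and 295, 623, 462 and 385 CPM in control-LNP libraries. It fell by 1.42 ± 0.34 (adjusted p = 0.0193). Leaving out any of ITA-LNP replicates 2 and 3 and control-LNP replicates 3 and 4 ended the call (adjusted p = 0.0529 to 0.0677). Cox5a, an accessory subunit of complex IV that faces the matrix (chr9:57521274-57532426, plus strand), had 119, 143 and 86.2 CPM with ITA-LNP and 203, 841, 391 and 328 CPM in control-LNP libraries. It fell by 1.75 ± 0.49 (adjusted p = 0.0370). The call was lost when any ITA-LNP library, or control-LNP replicate 3 or 4, was left out (adjusted p = 0.0700 to 0.137), with voom (adjusted p = 0.0601) and without a filter on low values (adjusted p = 0.0618). With median centring 0 of these 3 genes passed, although the differences were larger (log2 -3.25 and adjusted p = 0.0914 for Ndufa3, -2.55 and 0.171 for Atp5e, -2.88 and 0.172 for Cox5a).

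Within complex I, 35 nuclear subunits were tested, 1 fell and 0 rose, against 5.15% and 10.3% of all genes, with a median log2 fold change of -0.01. At an unadjusted p under 0.05, 2 were higher, and voom called 0 higher. The only complex I accessory subunits with all ITA-LNP values above all control-LNP values were Ndufb2, Ndufc1 and Ndufc2, or 3 of 35, against 19.1% of all genes. Ndufc1 and Ndufc2, partners in the membrane arm, are described after their values were seen. Ndufc2 had 216, 162 and 153 CPM with ITA-LNP and 27.8, 129, 58.3 and 35.3 CPM in control-LNP libraries (1.73 ± 0.59, adjusted p = 0.0834; 2.15 without control-LNP replicate 2, adjusted p = 0.0025). Ndufc1 had 210, 220 and 224 CPM with ITA-LNP and 86.1, 98.5, 143 and 106 CPM in control-LNP libraries (1.03 ± 0.37, adjusted p = 0.101; 0.99 without control-LNP replicate 2, adjusted p = 0.0190). With all 7 libraries neither gene passed in the fit used throughout. Ndufc2 was called higher with quantile normalization, and both genes were called higher with sample weights.

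In complex III, 0 of 8 nuclear subunits were called in either direction, against 10.3% of all genes higher and 5.15% lower. Their median log2 fold change was -0.31, and voom gave the same counts. Uqcrb and Uqcrh, chosen after their values were seen, lay in opposite directions at an unadjusted p under 0.05. Uqcrb, which binds ubiquinone near cytochrome b, had 153, 247 and 234 CPM with ITA-LNP and 51.0, 86.9, 135 and 105 CPM in control-LNP libraries (1.21 ± 0.46, adjusted p = 0.118). Uqcrh, the hinge protein beside cytochrome c1, had 74.3, 150 and 112 CPM with ITA-LNP and 145, 220, 263 and 215 CPM in control-LNP libraries (-0.93 ± 0.41, adjusted p = 0.168). In complex V, 15 nuclear subunits were tested, 1 fell (6.67%) and 0 rose, against 5.15% and 10.3% of all genes. At an unadjusted p under 0.05 or by voom, 0 were higher. Atp5a1 and Atp5b, the alpha and beta subunits of the catalytic head, also chosen after their values were seen, both had all ITA-LNP values above all control-LNP values. They were the only 2 of the 15 to do so, against 19.1% of all genes tested. Atp5b had 337, 428 and 391 CPM with ITA-LNP and 305, 182, 244 and 250 CPM in control-LNP libraries (0.66 ± 0.31, adjusted p = 0.185). Atp5a1 had 446, 478 and 411 CPM with ITA-LNP and 323, 220, 341 and 288 CPM in control-LNP libraries (0.62 ± 0.29, adjusted p = 0.185). Neither passed.

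**Figure D5:**
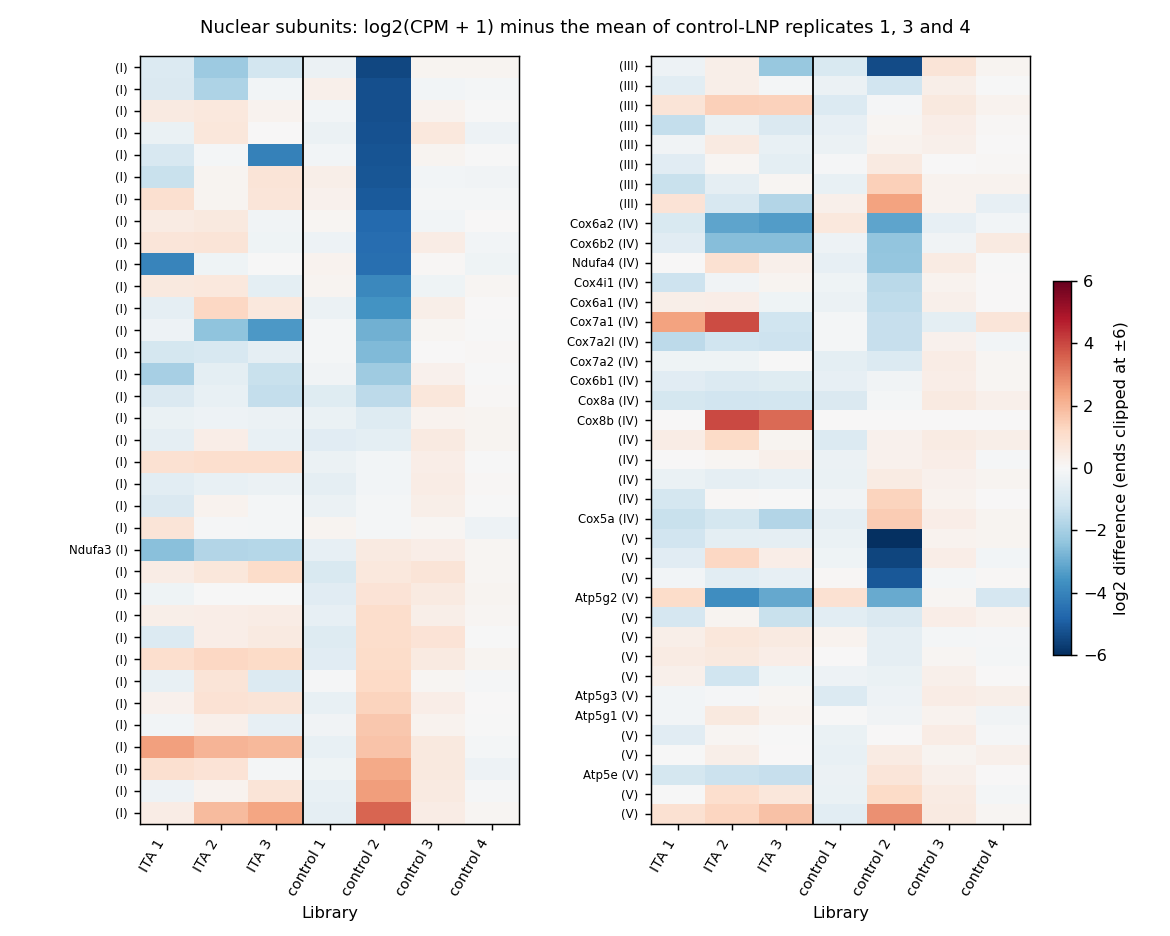
Log2(CPM + 1) of the nuclear subunits in each library after subtracting the gene's mean over control-LNP replicates 1, 3 and 4, complex I on the left and the other complexes on the right, ITA-LNP columns left of control-LNP columns, colours clipped at 6 either way and names given for the called genes and the isoforms described. Ndufa3, Atp5e and Cox5a are lower in all 3 ITA-LNP libraries, and control-LNP replicate 2 shows values above and below those of its group within every complex.

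Complex IV holds most of the subunits with tissue-specific isoforms, and 16 of its 20 nuclear members were tested. Of these, 1 fell (6.25%) and 0 rose, against 5.15% and 10.3% of all genes. At an unadjusted p under 0.05, 1 was higher, and voom called 0 higher. Cox8a, the widely expressed isoform of the smallest subunit, had 295, 280 and 289 CPM with ITA-LNP and 340, 574, 894 and 757 CPM in control-LNP libraries. No values overlapped between the groups, yet with a log2 fold change of -1.06 ± 0.35 it missed the threshold (adjusted p = 0.0746); leaving out control-LNP replicate 2 gave -1.09 (adjusted p = 0.0490) and leaving out control-LNP replicate 1 gave an adjusted p of 0.0173. Cox8b, its heart, skeletal muscle and brown fat counterpart, had 0, 99 and 69 reads in ITA-LNP libraries, or 0, 14.6 and 9.48 CPM, and 0 reads in all 4 control-LNP libraries. ITA-LNP replicates 2 and 3 held all its reads, and the difference did not pass (adjusted p = 0.124), though it did without ITA-LNP replicate 1 (adjusted p = 0.00906). Cox7a1, another heart and muscle isoform, had 13.2, 38.6 and 0.137 CPM with ITA-LNP and 1.38, 0, 0.769 and 3.28 CPM in control-LNP libraries (adjusted p = 0.308). Here the high libraries were ITA-LNP replicates 1 and 2. Markers of tissues that use these isoforms also varied among the ITA-LNP libraries, in unlike patterns. Of the 4 brown fat markers, Ucp1, the uncoupling protein, had 15.7, 7.52 and 0.275 CPM with ITA-LNP and 0 in all control-LNP libraries. Cidea had 8.94, 0 and 10.4 CPM with ITA-LNP, Dio2 9.57, 0.147 and 0 CPM, and both had at most 0.394 CPM in control-LNP libraries, while Elovl3 was at 0 in all libraries. Of the 6 heart markers, Tnnt2 made up nearly all of the sum in ITA-LNP replicates 1 and 2, with 17.7, 18.7 and 0.275 CPM with ITA-LNP. Actc1 had 0.471, 0 and 6.18 CPM with ITA-LNP, and Myh6, Myl7, Nppa and Tnni3 had at most 0.385 CPM in any library. The brown fat markers summed to 7.66 to 34.2 CPM with ITA-LNP and to 0 to 0.591 CPM in control-LNP libraries, with 0 of the 2 tested called; the heart markers summed to 6.59 to 18.8 CPM with ITA-LNP and to 0.328 to 0.985 CPM in control-LNP libraries; the skeletal muscle markers summed to 0.295 to 10.4 CPM with ITA-LNP and to 0.150 to 9.26 CPM in control-LNP libraries. Their part in the isoform values was not tested.

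The other isoform pairs gave no call in the fit used throughout. Cox7a2, the widely expressed partner of Cox7a1, had 412, 408 and 481 CPM with ITA-LNP and 328, 277, 664 and 528 CPM in control-LNP libraries (0.03 ± 0.35, adjusted p = 0.969). Cox7a2l, which joins complexes III and IV into supercomplexes, had 70.0, 89.6 and 88.2 CPM with ITA-LNP and 195, 79.7, 249 and 186 CPM in control-LNP libraries (-0.99 ± 0.48, adjusted p = 0.209; -1.33 without control-LNP replicate 2, adjusted p = 0.00444). Cox6a1 had 275, 286 and 181 CPM with ITA-LNP and 170, 74.6, 270 and 218 CPM in control-LNP libraries (adjusted p = 0.517). Its muscle form Cox6a2 was low, at 4.39, 0.147 and 0 CPM with ITA-LNP and 14.97, 0.150, 6.15 and 8.20 CPM in control-LNP libraries (adjusted p = 0.362). Median centring called Cox6a2 lower with all libraries (-2.81, adjusted p = 0.0442) and without control-LNP replicate 2 (-2.70, adjusted p = 0.0378). Cox6b1 had 260, 237 and 248 CPM with ITA-LNP and 290, 362, 540 and 454 CPM in control-LNP libraries, without overlap (-0.69 ± 0.31, adjusted p = 0.175). Its testis form Cox6b2 reached at most 2.67 CPM with ITA-LNP and 7.38 CPM in control-LNP libraries. Cox4i1 had 57.3, 118 and 151 CPM with ITA-LNP and 116, 44.6, 158 and 140 CPM in control-LNP libraries (adjusted p = 0.978), and its lung and hypoxia-linked form Cox4i2 was listed at 0 in all 7 libraries. Ndufa4 had 160, 300 and 194 CPM with ITA-LNP and 112, 31.2, 226 and 156 CPM in control-LNP libraries (adjusted p = 0.365), and its hypoxia-induced relative Ndufa4l2 was listed at 0 throughout. The 3 genes of the ATP synthase c ring encode the same mature protein and did not pass. Atp5g3 had the most reads of them, 409, 441 and 488 CPM with ITA-LNP and 261, 365, 616 and 589 CPM in control-LNP libraries (adjusted p = 0.958). Atp5g1 had 106, 181 and 141 CPM with ITA-LNP and 119, 102, 140 and 103 CPM in control-LNP libraries (adjusted p = 0.719). Atp5g2 was uneven, at 31.7, 0.147 and 0.824 CPM with ITA-LNP and 27.8, 0.897, 15.4 and 6.56 CPM in control-LNP libraries (adjusted p = 0.657). Of the members under the filter, mt-Nd4l, Cox4i2, Cox7b2 and Ndufa4l2 were listed at 0 in all libraries and Cox8c had 3 reads in control-LNP replicate 3 alone. Of the 2 genes that are not subunits, Atp5sl was at 0 in all ITA-LNP libraries and at 11.2, 0, 9.42 and 8.20 CPM in control-LNP libraries (adjusted p = 0.120; 0.0026 without control-LNP replicate 2), and Atp5s had 0, 41.7 and 0 CPM with ITA-LNP and 5.12, 4.78, 5.39 and 6.23 CPM in control-LNP libraries.

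Promoters of nuclear subunits often hold motifs of NRF1, ETS factors (the family of GABPA) and YY1. A RefSeq promoter on GRCm38.p6, 250 bases before to 50 after the start, was matched for 63 of the 78 nuclear subunits. The NRF1 motif GCGCATGC was found on either strand in 9 of them (14.3%), against 3.94% of 17492 coding genes. The ETS motif CCGGAAG was found in 14 (22.2%), against 12.9%, and the YY1 motif AAGATGGC in 9 (14.3%), against 3.57%. Shown are the 120 bases before and 20 after the start of Atp5e, which fell (chr2:174464082-174464221, minus strand), and of the isoforms Cox8a (chr19:7217597-7217736, minus strand) and Cox8b (chr7:140900427-140900566, minus strand), with the ETS motif in capitals.
Atp5e: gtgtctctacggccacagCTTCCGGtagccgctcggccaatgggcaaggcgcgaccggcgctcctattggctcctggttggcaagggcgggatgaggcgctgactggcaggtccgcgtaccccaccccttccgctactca
Cox8a: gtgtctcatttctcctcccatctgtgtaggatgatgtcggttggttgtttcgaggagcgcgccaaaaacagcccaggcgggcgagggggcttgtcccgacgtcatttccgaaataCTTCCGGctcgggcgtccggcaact
Cox8b: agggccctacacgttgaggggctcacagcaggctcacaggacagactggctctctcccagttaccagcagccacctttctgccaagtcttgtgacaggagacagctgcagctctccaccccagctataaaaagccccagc
The ETS letters lie in the windows of Atp5e and Cox8a and not in that of Cox8b. In 0 of the 63 promoters did any pair of these motifs share a base, and in 1 of the 17492. A match describes these letters only.

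Around the subunits, 172 genes of 11 lists for oxidative phosphorylation were compared in the same way, and 165 were tested, of which 2 rose and 3 fell (1.21% and 1.82%, against 10.3% and 5.15% of all genes). At an unadjusted p under 0.05 these counts were 3 and 12, with no count over all genes to set them against. By voom they were 2 and 2, against 1270 and 498 of all 12636 genes tested. Without control-LNP replicate 2 they were 6 and 14, against 15.7% of all genes each way. In complex II, which feeds electrons from succinate into the chain, 1 of 4 genes rose and 0 fell. Sdhc, a membrane anchor, had 194, 380 and 432 CPM in ITA-LNP libraries and 83.1, 103, 115 and 105 CPM in control-LNP libraries (1.64 ± 0.40, adjusted p = 0.0212). Leaving out ITA-LNP replicate 2, ITA-LNP replicate 3 or control-LNP replicate 4 ended the call (adjusted p = 0.0912, 0.101 and 0.0561), as did median centring (0.51, adjusted p = 0.742). Sdhd, the other anchor, missed the threshold (2.41 ± 1.03, adjusted p = 0.154), which it met when control-LNP replicate 2 was left out (adjusted p = 0.0256). Among 6 carriers and pores of the mitochondrial membranes, Slc25a4 rose and 0 fell. Slc25a4, the heart and muscle form of the ADP/ATP exchanger, had 926, 948 and 1110 CPM with ITA-LNP and 139, 359, 163 and 182 CPM in control-LNP libraries (2.33 ± 0.36, adjusted p = 0.00213). With median centring the value was 1.21 and did not pass (adjusted p = 0.519). The 8 smooth muscle markers were also higher in these libraries, as given above, and their part in the value of Slc25a4 was not tested.

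Among genes that make, process or translate mitochondrial RNA, 0 were called higher, and at an unadjusted p under 0.05 or by voom 0 were higher as well. Of all genes tested, limma called 10.3% higher and 5.15% lower with all 7 libraries, and 15.7% each way without control-LNP replicate 2. Without that library it called 2 of 75 mitochondrial ribosomal protein genes higher and 7 lower. Of 15 RNA handling genes 0 were then higher and 3 lower, and of 9 nuclear regulators 0 were higher and 2 lower. Genes for DNA upkeep and transcription had 0 calls in either direction. Of 9 tested genes for mitochondrial DNA upkeep and transcription 0 were called in either direction, with Polrmt and Polg, the mitochondrial RNA and DNA polymerases, at the smallest p. Of 15 genes for mitochondrial RNA handling, 0 rose and Elac2 fell. Elac2, which cuts the 3′ ends of mitochondrial tRNAs out of the precursor RNA, had 0.157, 0.884 and 0 CPM with ITA-LNP and 21.9, 71.8, 12.3 and 18.9 CPM in control-LNP libraries (-4.31 ± 0.93, adjusted p = 0.0109). Its ITA-LNP values rest on 1, 6 and 0 reads. Tbrg4, which stabilises mitochondrial RNA, had 0.157, 0.884 and 0 CPM with ITA-LNP and 47.3, 0.150, 30.6 and 24.6 CPM in control-LNP libraries, where replicate 2 was as low as the ITA-LNP libraries (-3.49 ± 1.32, adjusted p = 0.115; 0.00152 without control-LNP replicate 2). Of 75 tested mitochondrial ribosomal protein genes, 0 rose and Mrpl23 fell, with 1.41, 0 and 0 CPM with ITA-LNP and 16.0, 120, 24.8 and 16.6 CPM in control-LNP libraries (-4.53 ± 1.01, adjusted p = 0.0129; 0.0522 without ITA-LNP replicate 2 and 0.0543 without ITA-LNP replicate 3). Of 9 nuclear regulators, 0 rose and Nrf1 fell. Gabpa, the ETS factor named above, did not pass (adjusted p = 0.336). Nrf1, the factor whose motif is counted above, had 15.1, 9.14 and 7.42 CPM with ITA-LNP and 75.6, 184, 49.8 and 51.2 CPM in control-LNP libraries (-2.82 ± 0.69, adjusted p = 0.0214). Its call ended when ITA-LNP replicate 2 or 3 (adjusted p = 0.0638 and 0.0725) or control-LNP replicate 1 (adjusted p = 0.0591) was left out, with voom (adjusted p = 0.127) and with median centring (-3.95, adjusted p = 0.0763). The assembly lists gave 0 calls in either direction, by limma and by voom: 14 tested genes for complex I, 6 for complex III, 19 for complex IV and 3 for ATP synthase. At an unadjusted p under 0.05, 0 of them were higher and 4 lower: Ndufaf6, Lyrm7, Pet100 and Coa5, assembly factors of complexes I, III, IV and IV. There is no count over all genes at that cut to set these against. In ITA-LNP libraries Ndufaf6 had 0, 1 and 1 reads, and Lyrm7 had 0 in each. Without control-LNP replicate 2, limma called 1 complex I assembly gene higher and 1 lower (Ndufaf6, adjusted p = 0.00671), 1 complex III assembly gene lower (Lyrm7, adjusted p = 0.0135), and 0 in the lists for complex IV and ATP synthase. Nubpl, Ttc19, Tmem70 and Atpaf1, the other named genes of these lists, did not reach that level. The 5 chain members that the name rule misses gave 0 calls too, with the ATP synthase inhibitor Atpif1 lower at an unadjusted p under 0.05 and Cyc1 not.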

How the data were processed

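Total RNA for 3 ITA-LNP and 4 control-LNP libraries of abdominal aorta was purified with TRIzol and a column, and 500 ng was made into QuantSeq 3′ mRNA libraries, per the labels' protocols. Reads come from transcript ends, so reads at the ends of overlapping genes may be assigned to either. The submitters' processing notes name mm10; aligner, counter, annotation, strand setting and use of molecular identifiers are not given in these sources. Sample titles write NP where the protocol has LNP. The deposited table, with 32544 genes, holds values on a log10 scale: raising 10 to each value and subtracting 1 gave CPM that sum to 1000000 in each library, so the authors' values were taken as the log10 of a CPM value to which 1 was added. The CPM were whole multiples of 1 read in 100% of values, within 0.01 read, which gave the depths.

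Log2(CPM + 1), a pseudocount of 1 CPM, was tested with limma-trend (limma 3.58.1, R 4.3.3) over all 7 libraries without a covariate, for 12636 genes with a mean of at least 1, with Benjamini-Hochberg adjustment over all of them and a threshold of 0.05. Errors after ± are standard errors unless SD is written, and log2 fold changes are ITA-LNP over control-LNP. Fold changes of low genes are understated on this scale. The fit was also run on simulated counts with levels and spread taken from the control-LNP libraries other than replicate 2. That run does not show how the fit behaves with that library. Tables and plots were made with Python 3.11.15, pandas 2.3.3, numpy 2.4.6, scipy 1.17.1 and matplotlib 3.10.9.

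The members and lists were chosen with earlier results of these data known. The names given are all mitochondrial genes, the isoform pairs, per complex up to 3 called nuclear subunits in each direction, and the 2 genes of smallest p in each other list; others are said to be chosen after their values were seen. Ndufaf8, Coa1, Fmc1 and Twnk were not used here. A subunit that stayed in the tests and counts is not reported here by itself. Alternatives were other pseudocounts, filters, scalings, sample weights, voom, a replicate block, a looser threshold and leaving out each library; median centring without control-LNP replicate 2 was added after the data were seen.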

Additional observations from a re-analysis of the deposited data

Results flagged for a closer look

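Values of the 4 control-LNP libraries were examined in 55 groups for a library whose gap to the nearest other exceeds Dixon's 95% critical value as a share of the group's range. This flagged 10 of them, all for control-LNP replicate 2; chance alone flags about 1 in 20 such groups, and these groups share the same libraries. For mt-Nd4 the gap was 0.912 of the range, with 11227 CPM in that library and 2176 to 2971 CPM in the others. For mt-Cytb it was 0.866, with 11168 CPM against 2300 to 3485 CPM, and for mt-Nd6 0.847, with 1980 CPM against 306 to 563 CPM. Through mt-Cytb the complex III ratio of mitochondrial to nuclear CPM was flagged too (0.882), at 6.90 in that library and 1.93 to 2.51 in the others.

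Outside the subunits, control-LNP replicate 2 stood above its group for Polrmt, the mitochondrial RNA polymerase (0.919 of the range), at 149.5 CPM, with 9.84 to 21.2 CPM in the others. Polg, the mitochondrial DNA polymerase, had 96.0 CPM there and 47.7 to 53.1 CPM in the others (0.888). Mrpl23 had 120 CPM there and 16.0 to 24.8 CPM in the others (0.915). Elac2 (0.839), Nubpl, a complex I assembly factor (0.874), and Tmem70, an ATP synthase assembly factor (0.868), were higher there as well. What sets this library apart was not tested.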

How the results depend on the processing

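Of the values of the 51 named genes under the alternatives, 828 kept their direction and side of the threshold, 53 newly passed, 48 no longer passed and 34 changed sign, of which only mt-Nd2 had been called. With median centring the log2 fold change was -0.12 for mt-Cytb, -0.26 for mt-Nd2, -0.51 for mt-Nd5, -0.61 for mt-Nd6, -0.58 for Cox6a1, -1.10 for Cox7a2, -0.14 for Ndufa4, -0.86 for Atp5g1, -1.085 for Atp5g3 and -0.69 for Atpaf1, each positive without it. With centring and without control-LNP replicate 2 it was -0.060 for Cox6a1, -0.40 for Cox7a2, -0.0145 for Atp5g1, -0.27 for Atp5g3 and -0.81 for Atpaf1, and with sample weights -0.24 for Cox7a2, -0.235 for Atp5g3 and -0.26 for Atpaf1. Cox4i1 was 0.041 without mitochondrial reads in the total, 0.055 with voom and 0.11 with the replicate block. With 1 library left out, the sign was not kept for Cox4i1 (-0.44 to 0.36), Cox7a2 (-0.17 to 0.25), Atp5g3 (-0.20 to 0.21) and Atpaf1 (-0.58 to 2.08). Mitochondrial genes called higher numbered 7 with all libraries, 0 with median centring and 5 to 11 when 1 library was left out; 0 were lower under every alternative. Nuclear subunits called higher numbered 0, but 1 with quantile normalization, 3 with sample weights, 1 at an adjusted p under 0.1, 1 with median centring without control-LNP replicate 2, and 0 to 4 when 1 library was left out. Those called lower numbered 3, but 1 with median centring, which was Cox6a2 and none of those 3, and 7 with sample weights. They numbered 1 with the replicate block, 11 with median centring without control-LNP replicate 2, and 1 to 7 when 1 library was left out. Of the other lists, 2 genes were higher, but 0 with median centring, 5 with sample weights, 1 with the replicate block, 5 with median centring without control-LNP replicate 2, and 1 to 6 when 1 library was left out. In these lists 3 were lower, but 7 with median centring, 9 with quantile normalization, 19 with sample weights, 0 with the replicate block, 5 at an adjusted p under 0.1, 18 with median centring without control-LNP replicate 2, and 1 to 14 when 1 library was left out. The counts over all 12636 genes tested, 1306 higher and 651 lower, moved as well. They were 741 and 1249 with median centring, 1614 and 1401 with quantile normalization, and 2100 and 2243 with sample weights. With the replicate block they were 738 and 322, and with median centring without control-LNP replicate 2 they were 1781 and 2447. Leaving out control-LNP replicate 2 alone gave 1982 and 1982. The cause of these shifts was not tested. Among the fits with 1 library left out, the lowest mitochondrial count came without ITA-LNP replicate 1 and without ITA-LNP replicate 2, and the highest counts came without control-LNP replicate 2.

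The log2 difference in the mitochondrial to nuclear ratio was 1.16 to 1.52 for complex I, 1.05 to 1.67 for complex III, 1.204 to 1.417 for complex IV and 1.66 to 2.68 for complex V when 1 library was left out. With the mean log2(CPM + 1) of the genes in place of sums it was 0.70 for complex I, against 1.32 with sums, and 1.07 for complex IV, against 1.33. The value of 0.70 includes mt-Nd4l, which was at 0 in every library and lowers it. Deviations of same-numbered libraries from their group means had correlations of 0.01, -0.01 and -0.02. Control-LNP replicate 2 shifts the mean of its group, so these values cannot show whether the numbers pair the libraries, and the labels do not say. The replicate block called 6 mitochondrial genes higher and 1060 genes in all. Depth limits genes at a few reads, such as Cox6b2, Elac2 and Mrpl23.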
